A study of Mus musculus with 4 samples.

Results

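The genes described here encode 10 proteins of the cardiomyocyte sarcomere, the contractile unit of heart muscle: Myh6, Myh7, Myl2, Myl3, Mybpc3, Actc1, Tnnt2, Tnni3, Tnnc1 and Ttn. They were read in mouse mitral valve tissue as a gauge of heart muscle attached to the dissected valve. Every probe set annotated to exactly 1 of these genes was taken, which gave 15 of the 20393 probe sets with 1 gene, and 10 of the 12394 genes those probe sets cover. Total RNA was measured on 4 single-colour oligonucleotide arrays. The homozygous (Hom) group held 1 array, with the C1039G allele on both copies of Fbn1, the gene of the microfibril protein fibrillin-1. The heterozygous (Het) group held 2 arrays, labelled with 1 mutant copy without naming its substituted residue, and the wild-type (WT) group held 1 array. C1039G is a knock-in allele used to model Marfan syndrome; no treatment, age or sex was labelled, nor whether an array held 1 animal or a pool, so every spread below is one between arrays and may be technical. Fbn1 itself is not analysed here.

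In heart muscle, myosin heavy chains with their essential and regulatory light chains form the thick filament, and myosin binding protein C tunes how the motors engage. Actin, tropomyosin and the troponin complex form the thin filament, on which troponin C binds calcium, troponin I inhibits and troponin T anchors the complex to tropomyosin. Titin spans from the Z-disc to the middle of the sarcomere. The mitral valve is built mainly of interstitial cells, matrix and endothelium; its leaflets join atrial muscle at the annulus and its chordae join ventricular papillary muscle.

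All 10 genes were detected in the valve preparations, and Het replicate 2 was the lowest of the 4 arrays for each of them. Intensities, in arbitrary units, are those of arrays brought to equal medians. Of the 15 probe sets, 14 had a mean over the arrays of 62.5 or more, the midpoint of the whole file, and were compared; the other, a second probe set of Myh6 (1417729_at), stayed below the floor of 19 on every array. Over the 14 probe sets the median log2 difference from WT was -0.01 in Hom and -0.95 in Het replicate 2, while Het replicate 1 gave 0.25. Over all 11315 probe sets compared it was -0.03 in Hom and 0.18 in Het replicate 2, while Het replicate 1 gave -0.004. Summing the brightest probe set of each gene gave 34893 in Hom, 17602 in Het replicate 2 and 44360.2 in Het replicate 1, against 36172 in WT. In bulk tissue, fewer muscle cells and less RNA per muscle cell cannot be told apart.

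**Figure D1:**
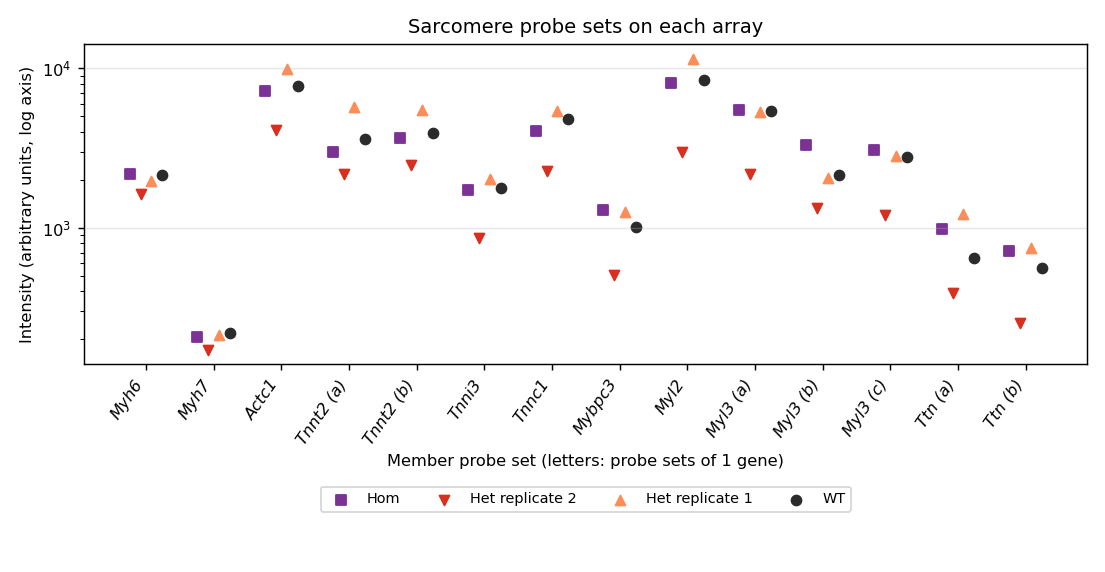
Intensity (arbitrary units, log axis) of the 14 sarcomere probe sets compared, 1 point for each of the Hom, Het replicate 2, Het replicate 1 and WT arrays; letters a to c mark probe sets of 1 gene in the order of their names. The Het replicate 2 point is the lowest at all 14 probe sets.

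Het replicate 2 read at least 2-fold below WT at 6 of the 14 sarcomere probe sets, against 2.25% of all probe sets compared. A count of 0 of the 14 was at least 2-fold higher in Het replicate 2, against 5.68% of all. In Het replicate 1, 0 of the 14 were 2-fold below WT (1.26% of all) and 0 were 2-fold above (0.795% of all), although 10 of the 14 read above WT. Hom had 0 of 14 in either direction, against 0.636% of all probe sets lower and 0.583% higher. The contrast was widest within the Het genotype itself, where Het replicate 2 read at least 2-fold below Het replicate 1 at 11 of the 14, against 3.08% of all, and 2-fold above it at 0 of the 14, against 8.21% of all. The median there was -1.26. Each of these comparisons sets 1 array against 1 array and has no test.

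**Figure D2:**
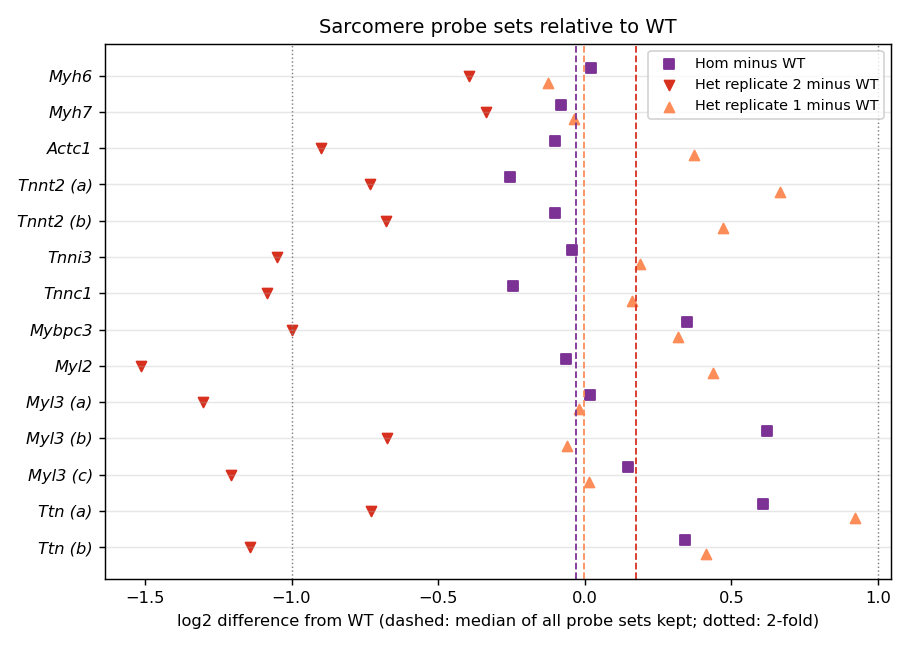
Log2 difference from WT of each sarcomere probe set in Hom, Het replicate 2 and Het replicate 1; dashed lines mark the median of all probe sets compared in the same array, dotted lines a 2-fold difference. All 14 Het replicate 2 points lie left of the dashed line of that array, Hom points lie between -0.26 and 0.62, and Het replicate 1 points between -0.13 and 0.92.

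The promoter windows of 5 of these genes are shown because their probe sets were at least 2-fold apart between the Het arrays, by at least 1 probe set, and because they hold a CArG box, a MEF2 site or M-CAT, motifs known from muscle promoters. The windows of Myl2, whose Het arrays differed most, held none of these 3 and are not shown; one had AGATAA and the other TATAAA. The sequences are from RefSeq (GRCm38.p6), 5′ to 3′ on the strand of the gene, from 250 bases before the annotated start to 50 after it. Capitals mark matches on either strand to 6 motifs. These are the TATA letters TATAAA, the M-CAT element of TEAD factors with the letters CATTCCT, and the CArG box bound by serum response factor. The others are the MEF2 site bound by MEF2 factors and a pair of GATA factor motifs. The first of the pair has the letters AGATAA. The second differs in its last letter and reads AGATAG. Everything outside these matches is in lower case in the windows below.
Actc1: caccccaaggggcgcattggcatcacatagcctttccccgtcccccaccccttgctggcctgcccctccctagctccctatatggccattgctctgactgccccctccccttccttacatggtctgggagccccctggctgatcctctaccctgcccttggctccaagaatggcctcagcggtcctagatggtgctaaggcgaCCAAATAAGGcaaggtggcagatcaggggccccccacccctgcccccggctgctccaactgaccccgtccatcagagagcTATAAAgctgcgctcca
Tnnt2: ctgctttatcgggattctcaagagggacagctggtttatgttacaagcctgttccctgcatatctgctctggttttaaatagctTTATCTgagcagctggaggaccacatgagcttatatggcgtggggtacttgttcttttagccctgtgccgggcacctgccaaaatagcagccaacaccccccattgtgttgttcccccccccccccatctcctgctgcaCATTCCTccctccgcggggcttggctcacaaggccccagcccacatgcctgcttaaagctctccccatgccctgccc
Mybpc3: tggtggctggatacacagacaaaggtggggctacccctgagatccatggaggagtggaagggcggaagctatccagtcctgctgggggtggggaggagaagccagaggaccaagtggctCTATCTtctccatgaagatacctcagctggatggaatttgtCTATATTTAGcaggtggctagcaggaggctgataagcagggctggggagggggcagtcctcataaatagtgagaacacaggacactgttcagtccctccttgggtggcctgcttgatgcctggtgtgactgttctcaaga
Ttn: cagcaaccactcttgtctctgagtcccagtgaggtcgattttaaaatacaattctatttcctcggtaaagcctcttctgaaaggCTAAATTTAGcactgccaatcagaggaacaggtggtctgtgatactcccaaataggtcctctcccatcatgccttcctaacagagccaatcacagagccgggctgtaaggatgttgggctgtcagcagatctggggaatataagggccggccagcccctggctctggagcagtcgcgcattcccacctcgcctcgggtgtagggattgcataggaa
Myl3: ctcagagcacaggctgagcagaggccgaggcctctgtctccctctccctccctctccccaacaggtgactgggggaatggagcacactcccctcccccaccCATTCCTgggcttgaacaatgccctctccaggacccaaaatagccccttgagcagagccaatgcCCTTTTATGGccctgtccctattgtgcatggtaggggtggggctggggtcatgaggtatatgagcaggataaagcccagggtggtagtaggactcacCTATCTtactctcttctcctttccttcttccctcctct
The Actc1 window is chr2:114052826-114053125, on the minus strand, with its CArG box 47 bases before the annotated start. That of Tnnt2, the first of its 2 windows, is chr1:135836084-135836383 on the plus strand, with M-CAT 27 bases before the start. The Mybpc3 window, chr2:91117894-91118193 on the plus strand, has a MEF2 site 90 bases before the start, and the Ttn window, chr2:76982498-76982797 on the minus strand, has one 166 bases before it. The Myl3 window, chr9:110763428-110763727 on the plus strand, holds M-CAT 149 bases and a CArG box 85 bases before the start.

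All 10 genes matched the promoter table, with 13 windows. A CArG box was in 2 of the 13 (1.63% of the 32851 windows in the table), a MEF2 site in 2 (0.557%) and M-CAT in 3 (5.36%), that of Myh6 included. AGATAG was in 3 (8.95%), AGATAA in 2 (11.2%) and TATAAA in 3 (13.6%), while the E-box letters CANNTG, left in lower case, were in all 13 (72.3%). Among motifs other than the E-box 0 pairs overlapped in these windows, and 0 pairs overlapped with an E-box. The windows of Tnni3, Tnnc1 and Myh7 held none but the E-box. These are matches of letters in a fixed window and say nothing on binding.

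The thick filament genes spanned the whole range of differences. Myl2, the regulatory light chain of ventricular muscle, read 8130.4 in Hom, 2981 in Het replicate 2 and 11527 in Het replicate 1, against 8505 in WT. Het replicate 2 was thus 2.85-fold below WT and 3.87-fold below Het replicate 1, the widest differences among the 14 probe sets. The brightest of 3 probe sets of Myl3, the essential light chain of ventricular and slow muscle, read 5449 in Hom, 2182 in Het replicate 2 and 5305 in Het replicate 1, against 5378 in WT. Hom, Het replicate 1 and WT lay within 0.04 log2 units of each other there, and Het replicate 2 was 2.46-fold below WT. Another probe set (1428266_at) gave 2.31-fold. The suffix of the brightest (1427768_s_at) and that of the other, 1427769_x_at, mark probes shared with other transcripts. So do the same suffixes on probe sets of Tnnt2 and Ttn named below. The 1427769_x_at probe set read 3296 in Hom, 1341 in Het replicate 2 and 2053 in Het replicate 1, against 2142 in WT. It put Het replicate 2 only 1.60-fold below WT and Hom 1.54-fold above, which the other Myl3 probe sets, at 1.01-fold and 1.11-fold above WT in Hom, did not show.

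By their own probe sets, the myosin heavy chains lay nearest to WT in Het replicate 2. Myh6, the alpha heavy chain that predominates in the atria and ventricles of adult mice, read 2189.9 in Hom, 1641 in Het replicate 2 and 1978 in Het replicate 1, against 2158 in WT. Het replicate 2 was 1.31-fold below WT, a log2 difference of -0.39 beside the member median of -0.95. Myh7, the beta heavy chain of the fetal ventricle and of slow muscle, read 206.1 in Hom, 172.5 in Het replicate 2 and 212.4 in Het replicate 1, against 217.9 in WT, so that Het replicate 2 was 1.26-fold below WT. A probe set annotated to both genes (1448554_s_at), and therefore outside the 15, read 2274 in Hom, 699.6 in Het replicate 2 and 2341 in Het replicate 1, against 1908 in WT, 2.73-fold below WT in Het replicate 2. The probe sets of the heavy chains thus disagree on the size of the difference, though Het replicate 2 was lowest by each. Mybpc3, the cardiac myosin binding protein C, read 1289 in Hom, 507.1 in Het replicate 2 and 1262 in Het replicate 1, against 1013 in WT. At a log2 difference of -0.998, it lay just short of 2-fold below WT in Het replicate 2.

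The thin filament genes were closer to each other. Actc1, the cardiac alpha-actin, read 7183 in Hom, 4133 in Het replicate 2 and 9979.5 in Het replicate 1, against 7716 in WT, 1.87-fold below WT in Het replicate 2. Tnnc1, the calcium sensor of cardiac and slow muscle, read 4049 in Hom, 2265 in Het replicate 2 and 5369.9 in Het replicate 1, against 4804 in WT, 2.12-fold below. Tnni3, the cardiac inhibitory troponin, read 1733 in Hom, 861.9 in Het replicate 2 and 2033 in Het replicate 1, against 1785 in WT, 2.07-fold below. Het replicate 1 was the highest array for all 3. Tnnt2, the cardiac tropomyosin-binding troponin, gave a smaller difference by both of its probe sets. The brighter (1424967_x_at) read 3680.3 in Hom, 2468 in Het replicate 2 and 5472 in Het replicate 1, against 3952 in WT, and the other (1418726_a_at) 3005 in Hom, 2162 in Het replicate 2 and 5691 in Het replicate 1, against 3589 in WT. Het replicate 2 was 1.60-fold and 1.66-fold below WT by these probe sets, and Het replicate 1 was 1.38-fold and 1.59-fold above it. Measured against Het replicate 1, the 3 troponin genes and Actc1 lay within a narrow band, 2.22-fold to 2.63-fold lower in Het replicate 2.

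Ttn, the giant elastic protein titin, read above WT in Het replicate 1 and Hom by both of its probe sets. Its brighter probe set (1427445_a_at) read 982.8 in Hom, 389.4 in Het replicate 2 and 1222 in Het replicate 1, against 644.8 in WT. Its second (1427446_s_at) read 710.9 in Hom, 254.5 in Het replicate 2 and 747.0 in Het replicate 1, against 561.6 in WT. The brighter one put Het replicate 1 at 1.90-fold and Hom 1.52-fold above WT, the highest Het replicate 1 value among the 14, while the second gave 1.33-fold and 1.27-fold. In Het replicate 2 they were 1.66-fold and 2.21-fold below WT. Against Het replicate 1 the probe sets agree more closely, at 3.14-fold and 2.94-fold lower in Het replicate 2, second only to Myl2.

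With both Het arrays as 1 group, no sarcomere probe set passed limma's test against WT. The median of the 14 log2 differences was -0.35, that of all probe sets 0.08, and the 14 values ran from -0.66 for Myl3 to 0.10 for Ttn, with SEs from 0.49 to 0.66. The lowest unadjusted p of a member was 0.263, for Myl3, and every member's adjusted p was 0.9999 or higher; 0 of 11315 probe sets (0%) were called after adjustment, while 120 (1.06%) had an unadjusted p under 0.05. Hom against WT gave member differences from -0.26 to 0.62, 0 calls among all probe sets and 56 (0.495%) at an unadjusted 0.05. Hom against Het gave a member median of 0.43 with 13 of the 14 above Het, 0 calls, and 95 probe sets (0.84%) at an unadjusted 0.05, the lowest member p being 0.0701 for the 1427769_x_at probe set of Myl3. The spread in these tests comes from the Het pair alone, with 1 residual degree of freedom, and WT and Hom are assumed to vary like it. Without Het replicate 2 the member medians of Het minus WT and Hom minus Het were 0.25 and -0.15, opposite in sign to those with both arrays, and without Het replicate 1 they were -0.95 and 1.15.

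Signals unrelated to muscle also differed between the arrays, in Hom as well as in Het replicate 2. The 16 probe sets for hybridisation controls, transcripts added from outside the tissue, read below WT in Het replicate 2 at every one, with a median of -1.28, and had a geometric mean of 760.4 in Hom, 439.9 in Het replicate 2 and 1183 in Het replicate 1, against 1035 in WT. The ratio of the 3′ to the 5′ probe set of Actb, a measure of RNA integrity, was 2.16 in Hom, 3.04 in Het replicate 2 and 2.19 in Het replicate 1, against 2.25 in WT, and that of Gapdh 3.84 in Hom, 4.65 in Het replicate 2 and 3.19 in Het replicate 1, against 4.18 in WT. In Hom all 16 controls also read below WT, with a median of -0.44. On the Gapdh ratio Het replicate 1 lay further from WT than Het replicate 2 did. The part of these signals in the sarcomere values was not tested. The values are also given by brightness, whose part was not tested either. The brightness ranges were cut on WT, which is also the array subtracted. The highest deposited intensity was 14036.4 in Hom, 8241.1 in Het replicate 2 and 18920 in Het replicate 1, against 17081.9 in WT. Probe sets with a WT intensity from 1000 to 3000 had a median Het replicate 2 minus WT difference of 0.21 (611 probe sets), against -0.998 for the 5 sarcomere probe sets among them, and from 3000 to 7000 the medians were -0.04 (165 probe sets) and -0.91 (4 sarcomere probe sets). At 7000 or more, where Actc1 and Myl2 lie, 56 of 58 probe sets read below WT in Het replicate 2. Their median was -0.48, against -0.90 for Actc1 and -1.51 for Myl2. In Hom 57 of the 58 read below WT, with a median of -0.29.

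**Figure D3:**
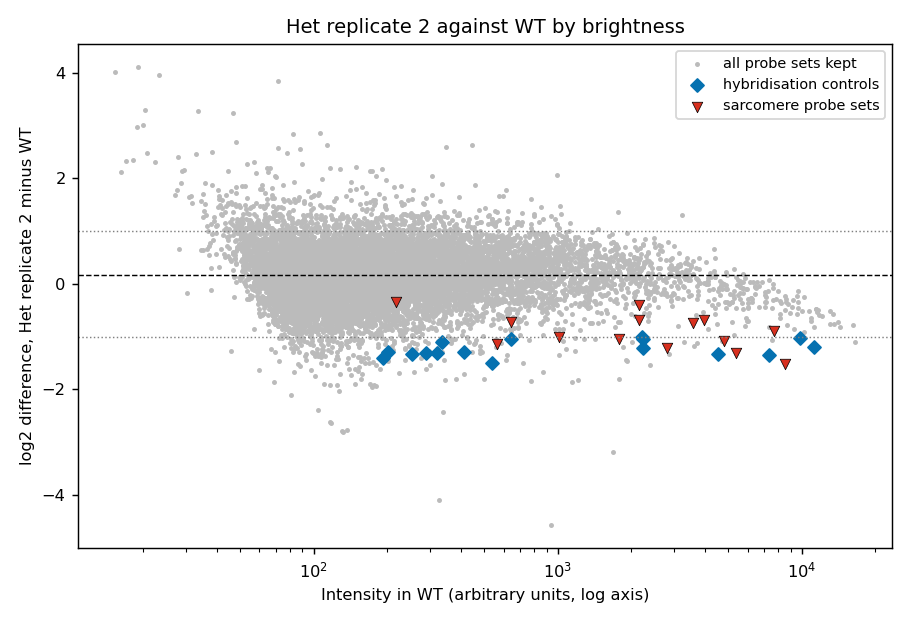
Log2 difference of Het replicate 2 minus WT against the intensity in WT (arbitrary units, log axis) for all 11315 probe sets compared (grey), the 14 sarcomere probe sets (red triangles) and 16 hybridisation controls (blue diamonds); the dashed line is the median of all, 0.18, and dotted lines mark 2-fold. The sarcomere probe sets lie below the median at every brightness, the controls lie near -1.28, and the brightest grey points slope downwards.

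Of the other striated muscle genes, 21 of the 24 compared lay under the median of all probe sets in Het replicate 2 minus WT and 3 above it. That median was 0.18, so some of the 21 were near or above WT, among them Capzb at 0.13, Csrp3 at 0.11 and Myl4 at -0.08. Of 52 further genes of the thick filament, thin filament and Z-disc, 41 had a probe set and 24 were compared, with medians from WT of -0.17 in Hom, -0.34 in Het replicate 2 and 0.05 in Het replicate 1. In Het replicate 2, 6 were at least 2-fold below WT (2.25% of all probe sets compared) and 1 at least 2-fold above (5.68% of all). In Hom 0 were 2-fold apart, against 0.636% of all lower and 0.583% higher. Het replicate 1 also had 0, against 1.26% of all lower and 0.795% higher. With 24 genes, counts of 0 do not set the list apart from all probe sets. The lowest were Myom2, an M-band protein, at 101.1 in Hom, under the floor in Het replicate 2 and 122.8 in Het replicate 1, against 116.6 in WT, at least 6.15-fold below WT in Het replicate 2, and Smpx, a small muscle protein, at 378.6 in Hom, 212.1 in Het replicate 2 and 520.5 in Het replicate 1, against 478.7 in WT. Acta1, the skeletal alpha-actin, read 200.6 in Hom, 119.4 in Het replicate 2 and 194.6 in Het replicate 1, against 204.5 in WT. The highest was Tpm2, the beta-tropomyosin of smooth and slow muscle, at 197.3 in Hom, 1271 in Het replicate 2 and 309.3 in Het replicate 1, against 306.4 in WT.

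Of the atrial light chains, Myl7 read above WT in Het replicate 2 and Myl4 slightly below it. Myl7, the atrial regulatory light chain, read 1271 in Hom, 3040.4 in Het replicate 2 and 1306 in Het replicate 1, against 1621 in WT. Myl4, the atrial essential light chain, read 1138 in Hom, 1818 in Het replicate 2 and 1418 in Het replicate 1, against 1916 in WT. Thus Het replicate 2 had the highest Myl7 of the 4 arrays and the lowest Myl2. Sln, sarcolipin, the atrial regulator of the calcium pump, read 123.1 in Hom, 334.1 in Het replicate 2 and 82.8 in Het replicate 1, against 104.2 in WT. Pln, phospholamban, its counterpart most abundant in the ventricle, read 2079 in Hom, 698.9 in Het replicate 2 and 2875 in Het replicate 1, against 1912 in WT. Of 7 atrial markers compared, 0 were 2-fold below WT in Het replicate 2, against 2.25% of all probe sets. Sln alone was 2-fold above, against 5.68% of all. With 7 genes, such counts do not set the list apart from all probe sets. The median was 0.27, beside 0.18 for all probe sets. Centring shifted Het replicate 2 by 0.19 and WT by -0.05 on the log2 scale, so that on the deposited scaling the atrial median lay near 0, and Myl7 and Sln were still above WT. Of the 7, 3 read below WT in Het replicate 2, with log2 differences of -0.56 for Nppa, -0.40 for the potassium channel gene Kcnj3 and -0.08 for Myl4. Nppa, the atrial natriuretic peptide, read 1934 in Hom, 1526 in Het replicate 2 and 4338 in Het replicate 1, against 2245 in WT. Only 3 ventricular markers were compared, with differences from WT in Het replicate 2 of -1.81 for Kcne1, -1.45 for Pln and -0.10 for Fhl2. The list median of -1.45 is thus the value of Pln, and Fhl2 was nearly unchanged. Kcne1, a potassium channel subunit, read 377.0 in Hom, 109.1 in Het replicate 2 and 321.1 in Het replicate 1, against 381.9 in WT. No member of either list passed limma's adjusted test, and the difference between the lists was not tested.

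Cardiomyocyte genes outside the sarcomere lay on the side of the members. Of 32 such genes 26 were compared, with medians from WT of 0.19 in Hom, -0.66 in Het replicate 2 and 0.18 in Het replicate 1. In Het replicate 2, 9 were at least 2-fold below WT, against 2.25% of all probe sets compared. Sln alone was at least 2-fold above, against 5.68% of all. Mb, the oxygen store myoglobin, read 4874 in Hom, 2218 in Het replicate 2 and 6824 in Het replicate 1, against 4701 in WT, and Ckm, the muscle creatine kinase, 1384 in Hom, 561.4 in Het replicate 2 and 1247 in Het replicate 1, against 1011 in WT. The lowest were Hspb7, a small heat shock protein of heart, at 267.2 in Hom, 98.4 in Het replicate 2 and 216.1 in Het replicate 1, against 345.9 in WT, and Ckmt2, the mitochondrial creatine kinase of muscle, at 568.9 in Hom, 126.6 in Het replicate 2 and 594.0 in Het replicate 1, against 413.6 in WT. Pygm, the muscle glycogen phosphorylase, was 2-fold below WT on both Het arrays. The Pygm values were 66.2 in Hom, 41.7 in Het replicate 2 and 42.7 in Het replicate 1, against 103 in WT. Its mean over the arrays reached the limit for comparison only because the WT value was counted. That limit itself thus favoured readings below WT for Pygm, which is among the 9. Cryab, the alpha-B crystallin found also outside muscle, was second highest after Sln, at 881.9 in Hom, 1754 in Het replicate 2 and 1071 in Het replicate 1, against 986.4 in WT. Of 15 genes of fast and embryonic skeletal muscle 2 were compared, Casq1 and Atp2a1, and the fast myosins Myh1 and Myh4 were under the floor on every array. A further fast myosin, Myh2, had 90.1 in Hom and was under the floor in Het replicate 2, Het replicate 1 and WT.

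**Figure D4:**
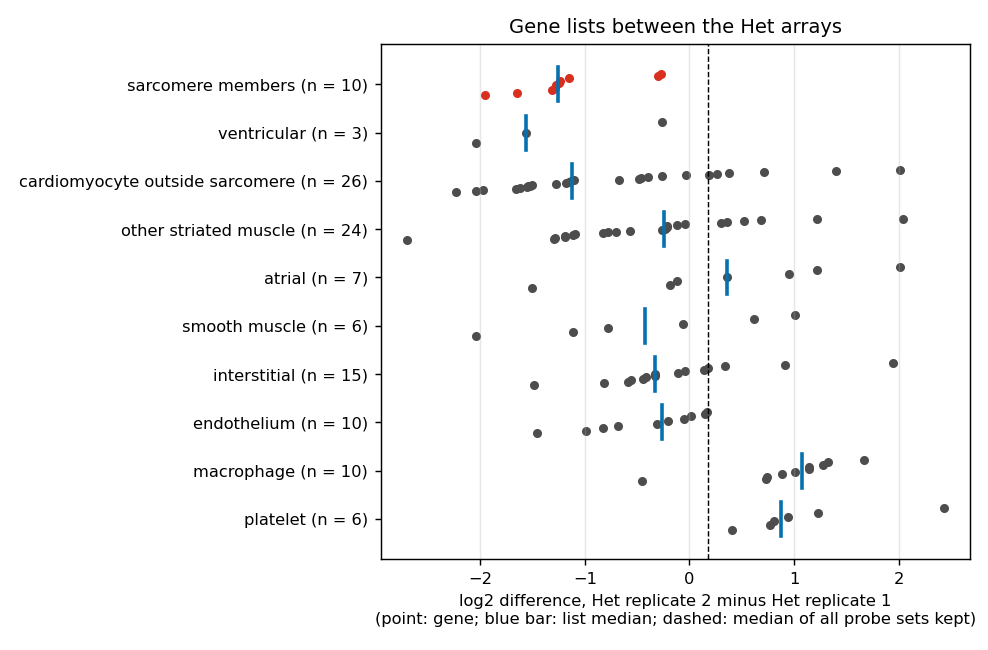
Log2 difference of Het replicate 2 minus Het replicate 1 for each gene compared (points) in 10 lists, with list medians (blue bars) and the median of all probe sets compared (dashed line, 0.18). The sarcomere members have a median of -1.26, cardiomyocyte genes outside the sarcomere -1.12, atrial markers 0.36 and macrophage markers 1.08.

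Markers of other cells also differed between the arrays, and their part in them was not tested. Of all probe sets compared, 2.25% were at least 2-fold below WT in Het replicate 2 and 5.68% at least 2-fold above. All 15 interstitial and fibroblast markers were compared; their summed level was 54228 in Hom, 45548 in Het replicate 2 and 57564 in Het replicate 1, against 66753 in WT, and in Het replicate 2 Mfap4 alone was 2-fold below WT and S100a4 alone 2-fold above. Of 11 macrophage markers 10 were compared, summing to 3468 in Hom, 6195 in Het replicate 2 and 3045 in Het replicate 1, against 3711 in WT, with 9 of the 10 above the median of all probe sets in Het replicate 2 minus WT. The 6 platelet markers summed to 1144 in Hom, 4250.3 in Het replicate 2 and 2309 in Het replicate 1, against 1309 in WT, and the 2 erythroid genes compared to 1286 in Hom, 3008 in Het replicate 2 and 1024 in Het replicate 1, against 1140.4 in WT. Endothelial markers summed to 5296 in Hom, 4632 in Het replicate 2 and 5761 in Het replicate 1, against 6202 in WT, with all 10 below the median of all probe sets in Het replicate 2 minus WT and 1, Tie1, at least 2-fold below WT. Smooth muscle markers (6 of 11 compared) summed to 6328 in Hom, 7607 in Het replicate 2 and 7232 in Het replicate 1, against 5648 in WT. Pln and Des, 2 of the 6, are also heart muscle genes, and the 4 without them summed to 4132 in Hom, 6836 in Het replicate 2 and 4201 in Het replicate 1, against 3588 in WT. The adipocyte markers (3 of 8 compared) summed to 2847 in Hom, 1295 in Het replicate 2 and 2372 in Het replicate 1, against 2502 in WT; the defining genes Myh11 of smooth muscle and Adipoq of fat were under the floor on every array. Of 12 transcription factors of heart muscle 9 were compared, with a median of -0.24 in Het replicate 2; Tbx5 alone was 2-fold below WT there, at 161.0 in Hom, 57.9 in Het replicate 2 and 23.3 in Het replicate 1, against 162.8 in WT.

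Within these lists the log2 differences of Het replicate 2 minus WT spread widely. Interstitial genes ran from -1.66 for Mfap4 and -0.94 for Ddr2 to 0.73 for Tcf21 and 2.59 for S100a4. Endothelial genes ran from -1.67 for Tie1 and -0.86 for Cdh5 to -0.02 for Nfatc1 and 0.06 for Vwf. In these lists Mfap4, S100a4 and Tie1 were the genes at least 2-fold from WT in Het replicate 2. Macrophage genes ran from -0.13 for Adgre1 and 0.27 for C1qa to 0.997 for Cd68 and 1.69 for Lyz2. Smooth muscle genes had Pln and Des lowest, at -1.45 and -1.04, and Tagln and Actg2 highest, at 1.46 and 1.51. Actg2, the gamma-actin of smooth muscle, read 77.1 in Hom, 102.4 in Het replicate 2 and 106.7 in Het replicate 1, against 36.1 in WT. Actg2 was thus at least 2-fold above WT in Hom as well as on both Het arrays, with the WT array alone low. Mfap4 was at least 2-fold below WT on both Het arrays and 1.70-fold below it in Hom. Of the fat genes, Fabp4 had -1.51, Lpl -0.82 and Retn 0.01. Among the heart muscle factors Gata4, at -0.39, followed Tbx5, and Mef2a and Mef2d were highest, at 0.21 and 0.33.

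The genes outside the members whose 3 differences from WT lay nearest to the median of the 10 members, by Euclidean distance on the log2 scale among 7299 genes, were Pgam2, Ankrd10, Nckap5l, Tcf3, Cap2, Hrc, Mdh1, Cmbl, Slc25a30 and Pla2g2c, at distances from 0.08 to 0.18. Pgam2, the muscle phosphoglycerate mutase, and Hrc, a calcium-binding protein of the sarcoplasmic reticulum, belong to the cardiomyocyte list; Mdh1 is the cytosolic malate dehydrogenase. Pgam2 read 216.4 in Hom, 124.2 in Het replicate 2 and 267.2 in Het replicate 1, against 230.2 in WT. Among 662 genes at least 2-fold from WT on some array, Myl2 was nearest to Hdac11, Pln and Ppargc1a (0.23 to 0.26), and Ttn to Nppb, Cd36 and Abcb8 (0.32 to 0.54). Nppb, the brain natriuretic peptide, read 601.8 in Hom, 274.0 in Het replicate 2 and 806.1 in Het replicate 1, against 377.2 in WT. The nearest to Myh6 in that set, Hcfc1, Vangl2 and Eef1a2, were 0.64 to 0.71 away. Myh6 was itself well under 2-fold from WT on every array, so a set of genes at least 2-fold from WT could not hold a close neighbour of it. With 3 differences that share the WT array, these distances are a description.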

How the data were processed

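The deposited values are linear single-colour array intensities for 22690 probe sets on 4 arrays. Which software made them is not given in the sources used here. The deposited intensities share a trimmed mean intensity of 150 (2% of probe sets left out at each end), while their medians spread over 0.28 log2 units. Each array was therefore centred on the common median, floored at the 25th percentile (19) and log2 transformed. Probe sets were named from the platform table, symbols being brought up to date through RefSeq gene identifiers (20364 of 20393 matched); 64 control probe sets were left out. Probe sets with a mean of at least the median, 62.5, were compared, 11315 in all. For gene lists the brightest probe set of a gene was used.

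Groups were fitted with limma 3.58.1 in R 4.3.3 (lmFit, eBayes, Benjamini-Hochberg, threshold 0.05). The fit was also run on simulated data with 200 probe sets changed in the Het arrays, and Het against WT was scored. Its noise was drawn from the Het pair for all 4 arrays, so it cannot check whether WT and Hom vary like that pair. The 2-fold counts have no test. Members and lists were chosen with earlier results of these data known. The rule for named genes took every member, the 2 highest and 2 lowest Het replicate 2 minus WT differences in each list, a few defining genes, and genes 2-fold apart in both Het arrays. Alternatives were the deposited scaling, quantile normalization, no floor, no filter or the 75th percentile, 1 probe set a gene, the mean of a gene's probe sets, eBayes with trend and robust, a 1.5-fold limit and leaving out each Het array. The alternatives for single genes, and leaving out Myl2, were chosen after seeing the data. The number of arrays limits the precision. Lists and plots used Python 3.11.15 and matplotlib 3.10.9.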

Additional observations from a re-analysis of the deposited data

How the results depend on the processing

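The low sarcomere median of Het replicate 2 minus WT kept its direction in all alternatives run, from -1.19 to -0.90 (main -0.95), and that of Het replicate 2 minus Het replicate 1 from -1.52 to -1.25. Centring raised Het replicate 2 by 0.19 log2 units; on the deposited scaling the median of all probe sets for Het replicate 2 minus WT was -0.07, against 0.18 after centring, and that of the members -1.19. The member median for Hom minus WT, -0.01, was 0.03 on the deposited scaling and 0.20 once quantile normalized, so it has no settled sign. The count of member probe sets at least 2-fold below WT in Het replicate 2 was 6 of 14, 8 on the deposited scaling (4.75% of all probe sets, against 2.25% in the main analysis), 8 once quantile normalized (3.03%), and 12 at a 1.5-fold limit, which 8.18% of all probe sets passed. Limma called 0 probe sets in each contrast in every alternative but 1: with the filter at the 75th percentile, Ppbp, no member and named after its value was seen, was called for Het against WT, giving a count of 1. Leaving out a Het array moved the member median of Het minus WT between -0.95 and 0.25, and that of Hom minus Het between -0.15 and 1.15. Without Het replicate 2, Het minus WT changed sign for 6 genes, and leaving out each Het array in turn gave ranges of -0.90 to 0.37 for Actc1, -0.68 to 0.47 for Tnnt2, -1.05 to 0.19 for Tnni3, -1.085 to 0.16 for Tnnc1, -0.998 to 0.32 for Mybpc3 and -1.51 to 0.44 for Myl2. For Ttn, at 0.10, the range was -0.73 to 0.92, with the change of sign without Het replicate 1; it was also -0.13 with the mean of its probe sets, -0.013 on the deposited scaling and -0.039 once quantile normalized. Myh6 in Het replicate 2 minus WT was -0.39, against -0.63 on the deposited scaling and -0.65 once quantile normalized, and Myh7 -0.34 against -0.58 on the deposited scaling. The deposited values differ by the centring shifts alone, 0.19 for Het replicate 2 and -0.05 for WT; the cause of the other changes was not tested. With 1 Het array left out no residual degree of freedom remains, so no test was run. No paired analysis was possible because WT and Hom hold 1 array each and share fewer than 2 replicate numbers with Het. Depth in reads does not apply to arrays; probe sets near the floor of 19 have only bounds.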

Other observations

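Most of the blood-derived cell markers compared were higher than WT in Het replicate 2, the array with the lowest sarcomere values. All 6 platelet markers lay above the median of all probe sets in Het replicate 2 minus WT. Of the 6, 5 were at least 2-fold above WT, against 5.68% of all probe sets compared. Ppbp, a platelet chemokine, read 82.6 in Hom, 1025 in Het replicate 2 and 534.7 in Het replicate 1, against 71.4 in WT, so it was high on both Het arrays. Gp1bb, a subunit of the platelet receptor for von Willebrand factor, was 2-fold above WT on both as well, by 2.31 and 1.08 on the log2 scale in Het replicate 2 and Het replicate 1. Among the other platelet genes Gp9 was higher by 2.50 in Het replicate 2 minus WT, Itga2b by 1.24 and Gp5 by 0.73. Gp9, which is in both platelet counts, read 74 in Hom, 216.1 in Het replicate 2 and 40.1 in Het replicate 1, against 38.3 in WT. Its mean passed the filter only because the Het replicate 2 value was counted, so the filter itself favoured a high reading there. Lyz2, the lysozyme of macrophages and other myeloid cells, read 319.6 in Hom, 981.1 in Het replicate 2 and 308.5 in Het replicate 1, against 304.8 in WT. Slc4a1, the anion exchanger of red cells, read 109.7 in Hom, 430.0 in Het replicate 2 and 105.6 in Het replicate 1, against 108.5 in WT. Alas2, the heme synthesis enzyme of red cells, was higher by 1.32 in Het replicate 2 minus WT. Of 8 erythroid genes listed, only Slc4a1 and Alas2 were compared. Hba-a1, below the filter, read 24.6 in Hom, 31.1 in Het replicate 2 and 38.4 in Het replicate 1, and was under the floor in WT. Epb42 was under the floor on every array. The macrophage gene Adgre1 went the other way, at -0.13 in Het replicate 2 minus WT. With 1 array a side, these differences have no test.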
